A study of Mus musculus with 16 samples.

Results

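Pre-memory B cells, sorted as Fraction 6, were compared with B cells of the whole light zone gate (LZ) of the germinal centre, both taken from mouse spleen on day 10 after immunisation. The comparison was set by the sort labels and sets 2 libraries of Fraction 6 against 3 of LZ, 5 of the 16 RNA sequencing libraries of the study. The model behind it took the spread among libraries from all 16. The comparison covers 11266 of the 23234 genes with a name in the deposited table, those with at least 1 FPKM in at least 2 of the 16 libraries. FPKM are fragments mapped to a transcript, scaled by its length and by the library's total. All cells were of the C57BL/6 strain with the genotype Bcl6-YFP(KI/+) B1-8hi(KI/+): 1 Bcl6 allele reports as a yellow fluorescent protein and 1 heavy chain allele encodes a receptor with high affinity for the hapten NP. Naive cells of this genotype were given to CD45.1+ recipients without these alleles, which were immunised with NP-CGG in alum intraperitoneally on day 0, and spleen cells of 9 recipients were pooled before the sort. Both gates held donor cells (CD45.2+) that bound NP, had switched to IgG1 and were CD138-negative. LZ cells were also CD38-negative, CD86-high and CXCR4-low, with no selection on the Bcl6 reporter or Efnb1. Fraction 6 cells were CD38-positive, GL7-negative, Bcl6-YFP-low and Efnb1-high. The labels call Fraction 6 pre-memory, and 2 neighbouring CD38-positive, GL7-negative gates serve here for orientation: Fraction 5 (pro-memory, n = 3), which is Bcl6-YFP-high and Efnb1-high, and Fraction 7 (mature memory, n = 3), which is low for both. The donor cells are transferred cells of 1 receptor specificity carrying 1 modified Bcl6 allele, and the labels do not say whether libraries of a gate came from separate pools, and the p-values cover no more than the differences among libraries, which may be technical.

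In a germinal centre, B cells divide and mutate their receptors in the dark zone and are tested for antigen capture and T cell help in the light zone. Cells that receive strong help return to the dark zone or become plasma cells, and others leave as long-lived memory B cells, which rest outside the cell cycle and recirculate. Position in the follicle is held by receptors that confine cells, among them S1pr2, while S1pr1 and chemokine receptors guide cells out and between organs.

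The gate genes were checked first. Bcl6, the transcription factor that defines germinal centre B cells and the gene behind the reporter, measured 162, 155 and 177 FPKM in the LZ libraries and 75.3 and 70.2 FPKM in Fraction 6. Cd38 measured 10.4, 12.8 and 9.39 FPKM in LZ and 75.3 and 76.4 FPKM in Fraction 6. Both moved as their gates were set, and the groups did not overlap. Efnb1, on which Fraction 6 was selected as high, was lower in Fraction 6 than in LZ, at 32.4 and 27.5 FPKM against 54.7, 44.9 and 57.1 FPKM (log2 change -0.78 ± 0.11 SE, adjusted p = 8.15e-05). Cxcr4, on which LZ was selected as low, was also lower in Fraction 6 than in LZ, a call not kept in every fit with a library left out. Its log2 change was -0.32 without Fraction 6 library 1. Sdc1, which encodes CD138, did not exceed 0.162 FPKM in these 5 libraries. The B cell genes Cd79a, Ms4a1 and Pax5 were all present, at 179 FPKM or more in each of the 5 libraries.

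Libraries of 1 group were close to each other: the median absolute log2 difference per gene was 0.127 between the Fraction 6 libraries and 0.133 to 0.148 among those of LZ, against 0.349 to 0.377 between the groups. Depth relative to LZ library 1, estimated from the spacing of the lowest values, ranged from 1 to 1.21 in these 5 libraries, and the number of reads is not known. Markers of other cell types were mostly low, with exceptions in both groups. Cd3e, Cd3g, C1qa, C1qb, Col1a1 and Pdpn were listed at 0 in all 5 libraries, and Cd4, Itgax and Cxcl13 did not exceed 0.174 FPKM. The summed level of the T cell list (15 genes in the table, 10 of them under 1 FPKM in all 5 libraries) was 106 to 119 FPKM in LZ and 165 and 202 FPKM in Fraction 6, nearly all from Cd2 and Lck. For macrophage markers (15 genes, 10 under 1 FPKM) the sums were 11.2 to 17.9 and 17.9 to 20.5 FPKM, and for stromal markers (14 genes, 11 under 1 FPKM) 26.4 to 28.6 and 62.3 to 64.0 FPKM, the latter mostly from Pecam1. Among macrophage markers, Emr1 (F4/80) rose from 0.0616 to 0.161 FPKM in LZ to 1.06 and 1.41 FPKM in Fraction 6 (log2 change 1.00, adjusted p = 0.000574), and Itgam rose by 0.75 (adjusted p = 0.00885), a call not kept with every library left out. Lyz2 measured 0 to 2.34 FPKM in LZ and 5.7 and 1.08 FPKM in Fraction 6, and Cd68, the highest on that list, 9.66 to 13.5 FPKM and 8.08 and 11.9 FPKM. The neutrophil sums (9 genes in the table) were 5.1 to 28.9 FPKM in LZ and 22.1 and 6.94 FPKM in Fraction 6, where Mpo (4.86 FPKM) and Elane (4.4 FPKM) were listed in library 1 alone of the 5. Erythroid and platelet sums (13 genes in the table), nearly all globin, were 80.3 to 198 FPKM and 123 and 97.7 FPKM. The part of such cells in the differences between the groups was not tested.

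Fraction 6 differed from LZ in a large share of its genes. The model across all genes called 5340 of 11266 genes at an adjusted p under 0.05 (47.4%), 2126 higher in Fraction 6 (18.9%) and 3214 lower (28.5%). With quantile normalization the split was 2771 higher and 2635 lower, so the balance of rises and falls rests on the scaling, while the median log2 change of all genes was close to 0 either way (-0.04 and 0.02). Larger changes leaned downwards: 361 genes rose and 699 fell by over 1 on the log2 scale, and 51 rose and 139 fell by over 2. Among all genes tested, both Fraction 6 libraries lay above all LZ libraries for 3343 (29.7%) and below them all for 4179 (37.1%). Of the calls, 3313 (62%) kept their direction and threshold when any 1 of the 5 libraries was left out. In sorted populations, fewer cells of a type and less RNA per cell cannot be told apart, and this holds for each difference below. List counts below for Fraction 6 against LZ are to be read against the shares of 18.9% and 28.5%.

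**Figure D1:**
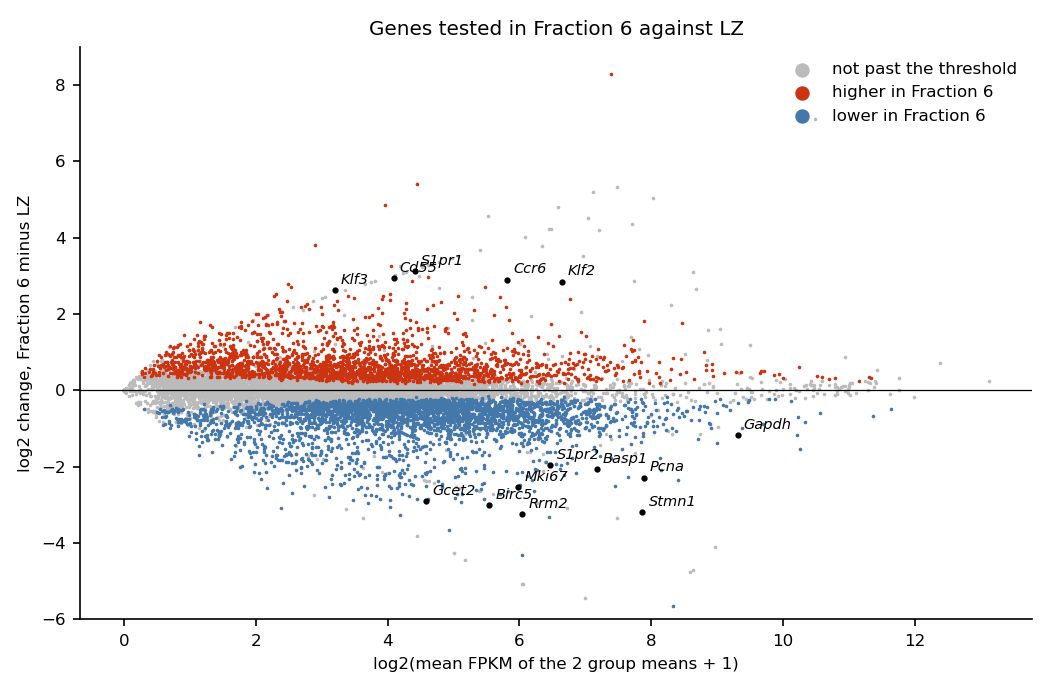
Each point is 1 of the 11266 genes tested. The horizontal axis gives log2 of the mean FPKM of both group means plus 1, and the vertical axis the fitted log2 change, Fraction 6 minus LZ. Red and blue mark genes past the threshold (2126 higher, 3214 lower), and named genes are in black: trafficking genes such as Klf2 and Ccr6 lie near 3, and cell cycle genes such as Rrm2 and Stmn1 near -3.

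The largest rises included trafficking receptors among genes of other kinds. Leaving aside gate genes and small RNA rows, the rises selected by size included Plac8, S1pr1, Cd55, Ccr6, Arhgef18, Klf2, Rin3, Fcrl5, Klf3 and Bhlhe40, with log2 changes from 2.53 to 3.27. Ccr6, the receptor for the chemokine Ccl20, measured 11.8, 13.6 and 11.4 FPKM in LZ and 96.2 and 99.4 FPKM in Fraction 6, 7.98-fold higher in the mean. Arhgef18, an exchange factor for small GTPases, measured 4.03, 4.19 and 3.67 FPKM against 32 and 38.9 FPKM. Both genes varied little within a group compared with the gap between the groups. Plac8 was the least even: at 13.6 and 45.3 FPKM its Fraction 6 libraries differed over 3-fold from each other, yet both lay above the 1.42 to 2.15 FPKM of LZ (log2 change 3.27 ± 0.43 SE, adjusted p = 2.99e-05). Its mean reached 396 FPKM in Fraction 7. Bhlhe40, a transcriptional repressor linked to the circadian clock, measured 3.51 to 4.19 FPKM in LZ and 26.8 and 27.4 FPKM in Fraction 6.

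The largest falls were cell division genes, with a few others among them. The 14 falls outside small RNA rows had log2 changes from -2.85 to -3.33 and comprised 2810417H13Rik (a PCNA-binding factor now named Pclaf), Hbb-bh1, Rrm2, Stmn1, 1190002H23Rik (Rgcc), Cdkn3, Birc5, Pbk, Cdc20, Gcet2, H1fx, Shcbp1, Plk1 and Cdc45. Stmn1, a protein that destabilises microtubules, measured 407, 417 and 431 FPKM in LZ and 43.4 and 46.6 FPKM in Fraction 6. Gcet2 (Gcsam), a germinal centre adaptor protein, measured 37.5, 43 and 43.9 FPKM against 4.42 and 4.93 FPKM, 8.87-fold lower. Hbb-bh1, an embryonic globin gene, measured 33.2, 25.6 and 37 FPKM in LZ and 4.03 and 1.28 FPKM in Fraction 6, whereas the adult globin gene Hbb-b1 measured 14.7 to 35.2 FPKM in LZ and 33.1 and 17.8 FPKM in Fraction 6. The groups overlapped for Hbb-b1 and not for Hbb-bh1.

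**Figure D2:**
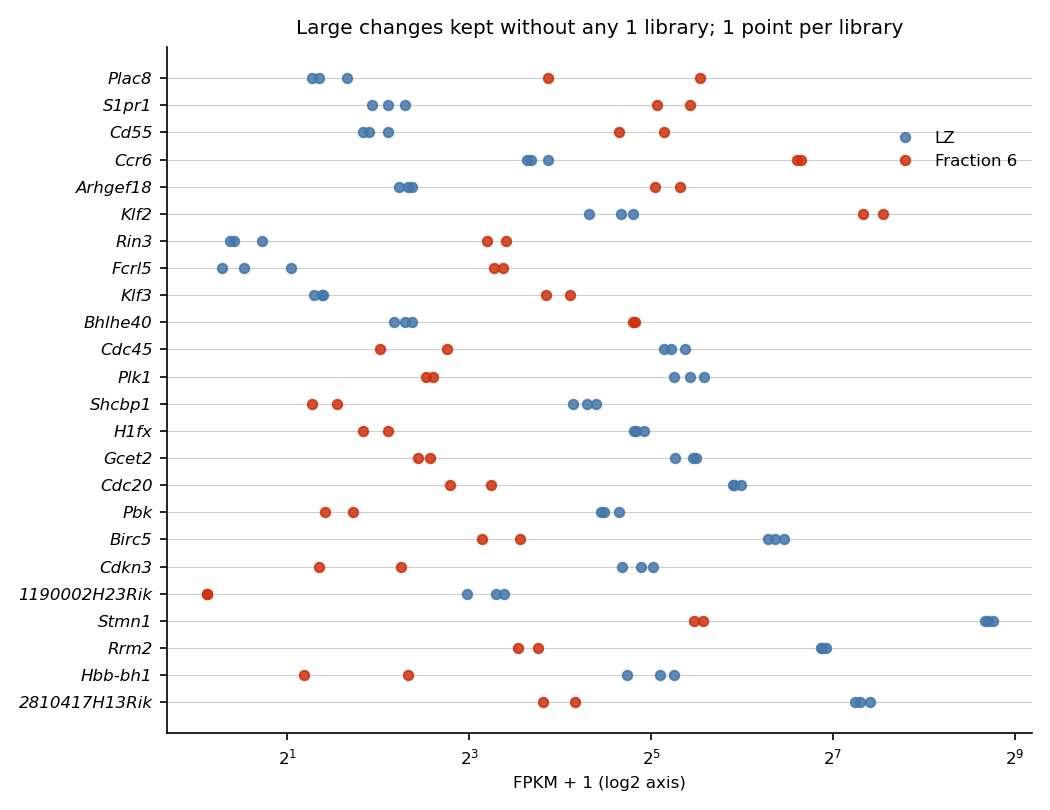
Genes among those with the largest changes that passed the threshold with any 1 library left out, small RNA rows aside. The horizontal axis is FPKM + 1 on a log2 axis, with 1 point per library (3 LZ in blue, 2 Fraction 6 in red). The genes were selected for groups that do not overlap, and the Plac8 points of Fraction 6 are the furthest apart among the rises (13.6 and 45.3 FPKM).

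Genes of egress and homing rose together. Of 16 tested, 12 rose, 0 fell and the median log2 change was 1.92, against -0.04 over all genes. Klf2, the transcription factor that drives S1pr1 expression in lymphocytes, measured 26.9, 18.9 and 24.4 FPKM in LZ and 160 and 187 FPKM in Fraction 6, 7.43-fold higher (log2 change 2.85 ± 0.19 SE, adjusted p = 7.53e-08). S1pr1, the receptor through which lymphocytes follow sphingosine 1-phosphate into blood and lymph, measured 3.92, 2.83 and 3.32 FPKM against 32.5 and 42.1 FPKM (11.1-fold, adjusted p = 4.87e-08). Both had every Fraction 6 library well above every LZ library. Ccr7, which guides cells to T cell areas, was nearly silent in LZ at 0.711, 0.423 and 0.314 FPKM and reached 6.78 and 7.71 FPKM in Fraction 6 (log2 change 2.48 ± 0.24 SE, adjusted p = 1.68e-06). Gpr183 (Ebi2), the oxysterol receptor that places B cells at the outer follicle, rose by 2.12 on the log2 scale, Itgb7 by 2.44, Cxcr3 by 1.82, Selplg by 1.67 and Itga4 by 1.27. The 4 members that did not pass were Itgb1 (0.17), Itgb2 (-0.06), Cd44 (0.26) and Cxcr5 (0.16). Under quantile normalization all 16 rose, these 4 included (median 2.00), so their lack of a call rests on the scaling. Cxcr5, the receptor for the follicle chemokine Cxcl13, measured 113 to 119 FPKM in LZ and 135 and 128 FPKM in Fraction 6 (adjusted p = 0.186), the highest level of a chemokine receptor on the list.

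**Figure D3:**
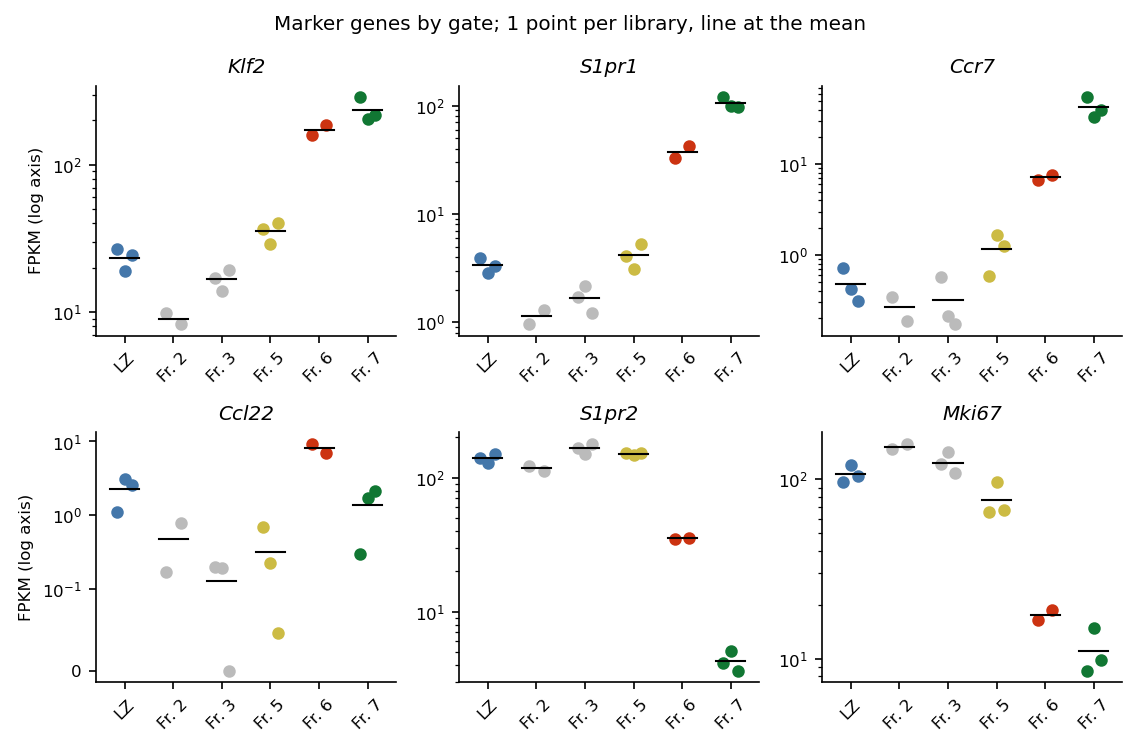
FPKM on a log axis for 6 genes in all 6 sorted gates, 1 point per library with a line at the mean (the Ccl22 axis is linear under 0.1 FPKM so that values of 0 can be drawn). Klf2, S1pr1 and Ccr7 are higher in both Fraction 6 libraries than in every LZ and Fraction 5 library, S1pr2 and Mki67 are lower, and Ccl22 is highest in Fraction 6.

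Genes that hold cells in the germinal centre moved the other way. Of 11 tested, 7 fell and 2 rose, with a median log2 change of -0.78, counting Efnb1, which is also a gate gene. Without Fraction 6 library 2 the counts were 6 and 1. S1pr2, the receptor that confines B cells to the follicle centre, measured 140, 129 and 150 FPKM in LZ and 34.7 and 35.6 FPKM in Fraction 6, 3.97-fold lower (log2 change -1.96 ± 0.11 SE, adjusted p = 1.67e-08). Ccrl1 (Ackr4), a scavenger of Ccr7 ligands, measured 10.4, 9.67 and 10.9 FPKM against 0.862 and 1.12 FPKM. For both genes the groups lay far apart. Gna13, the G protein downstream of S1pr2, fell by 0.54 on the log2 scale, Plxnb2 by 0.90 and Rgs10 by 1.03. Rgs13, a regulator of G protein signalling of germinal centre cells, fell by 1.12, a call that did not pass in every fit with a library left out. Ralgps2 rose by 0.72 and Arhgef1 by 0.26, the latter being the rise lost without Fraction 6 library 2, and Rgs1 (-0.33) and Sema7a (-0.04) did not pass.

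Ccl22, a chemokine that attracts Ccr4-bearing T cells, had its highest mean of the 4 gates described here in Fraction 6. It measured 1.09, 3.11 and 2.59 FPKM in LZ and 9.28 and 7.06 FPKM in Fraction 6 (3.61-fold, log2 change 1.54 ± 0.37 SE, adjusted p = 0.00366). The mean was 0.316 FPKM in Fraction 5 and 1.39 FPKM in Fraction 7, and both differed from Fraction 6 (adjusted p = 0.000116 and 0.00136). Its relative Ccl17, which binds the same receptor, was listed at 0 in all 5 libraries. Of 14 tested genes for T cell chemokines and costimulation, 9 rose and 0 fell (median 0.56), with 1 fall without LZ library 2. Pdcd1lg2 (PD-L2) measured 3.64 to 4.45 FPKM in LZ and 11.6 and 11 FPKM in Fraction 6, and Cd274 (PD-L1) 3.99 to 4.2 FPKM against 10.3 and 11.8 FPKM. Both ligands of the inhibitory receptor PD-1 thus lay higher in every Fraction 6 library. Il4i1, an amino acid oxidase induced by interleukin 4, rose (121 to 146 FPKM in LZ, 278 and 284 FPKM in Fraction 6). Cd83, used as a light zone surface marker, rose slightly (232 to 252 FPKM in LZ, 308 and 312 FPKM in Fraction 6, log2 change 0.34 ± 0.09 SE, adjusted p = 0.00771). The receptor Cd40 measured 57.7 to 65.7 FPKM and 72.6 and 67.6 FPKM and did not pass (0.16, adjusted p = 0.189).

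Targets of NF-kB and CD40 signalling shifted by small amounts. Of 22 tested, 11 rose and 2 fell (median 0.26), with 17 and 0 and a median of 0.51 under quantile normalization. The inhibitor genes Nfkbid (log2 change 0.93), Nfkbie (0.51) and Tnfaip3 (0.45) rose, as did the survival genes Bcl2a1a, Bcl2a1b and Bcl2a1d (0.52 to 0.61), which are close copies whose reads may be split between them. Irf4, a dose-sensitive regulator of B cell fate, measured 6.05 to 8.8 FPKM in LZ and 10.2 and 12 FPKM in Fraction 6 (0.55, adjusted p = 0.00181). Traf1 fell by 0.35, and so did Batf by 0.35, the latter call being lost with any 1 of the 5 libraries left out. The subunits Rela (-0.03), Relb (0.11) and Nfkb2 (0.04) did not pass.

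Immediate early genes, which respond within minutes to receptor signals, split by family member. Of 18 tested, 8 rose and 3 fell (median 0.36). Egr3 measured 6.35, 5 and 6.36 FPKM in LZ and 18.2 and 21 FPKM in Fraction 6 (log2 change 1.58 ± 0.24 SE, adjusted p = 0.000121), and Egr1 measured 27.3, 30.3 and 23.9 FPKM against 18.4 and 18 FPKM (-0.55 ± 0.12 SE, adjusted p = 0.00249). Egr2 lay at 3.12 to 5.76 FPKM and 4.26 and 5.39 FPKM, with overlapping groups. Of these 3 related zinc finger factors, Egr3 rose, Egr1 fell and Egr2 did not pass (adjusted p = 0.485). Nr4a1 (Nur77), a nuclear receptor induced by antigen receptor signals, rose (2.86 to 3.42 FPKM in LZ, 7.34 and 8.91 FPKM in Fraction 6). Jun rose by 0.84, Jund by 0.58, Zfp36 by 0.70 and Ier5 by 0.87. Dusp5, a phosphatase of ERK, fell (8.38 to 13.4 FPKM in LZ, 2.39 and 2.55 FPKM in Fraction 6, -1.70). Fos (0.11) and Junb (0.29) did not pass.

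Genes of germinal centre identity fell, though most stayed well expressed. Of 22 tested, 17 fell and 1 rose (median -0.97), with 3 rises under quantile normalization, and without the gate genes Bcl6 and Efnb1 it was 15 of 20 that fell. Mef2b, a transcription factor upstream of Bcl6, measured 174 to 239 FPKM against 76.8 and 68.3 FPKM (log2 change -1.49 ± 0.24 SE, adjusted p = 0.000177). It was thus lower in both Fraction 6 libraries than in any LZ library, without being lost. Basp1 fell by 2.06 on the log2 scale, Ung, a DNA glycosylase that removes uracil, by 1.75, Ezh2 by 1.35, Gm600 (Nuggc) by 1.30 and Pou2af1, a coactivator of octamer factors, by 1.04. Lmo2 was the exception that rose (0.51). Il21r (-0.08), Irf8 (0.11), Spib (0.10) and Mef2c (-0.14) did not pass.

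Genes of memory B cells rose. Of 33 tested, 25 rose and 2 fell (median 1.16), and 24 rose with the gate gene Cd38 set aside. Hhex, a homeobox factor required for memory B cells, measured 12.7, 13.3 and 13.5 FPKM in LZ and 49.1 and 53.3 FPKM in Fraction 6 (log2 change 1.88 ± 0.22 SE, adjusted p = 1.29e-05). Its corepressor Tle3 rose (12.6 to 14.2 FPKM in LZ, 24.9 and 25.8 FPKM in Fraction 6), and Ski, another corepressor, likewise (0.612 to 0.739 FPKM in LZ, 2.34 and 3.36 FPKM in Fraction 6). All 3 lay higher in both Fraction 6 libraries than in any LZ library. Zfp318, known for its part in IgD expression, rose by 2.42, Ptpn22 by 1.78, Bhlhe41 by 1.47 and Il6ra by 1.10. Zbtb32, a repressor of memory recall, measured 1.87 to 2.65 FPKM and 3.9 and 7.48 FPKM (0.96, adjusted p = 0.0117), a call not kept without Fraction 6 library 2, where adjusted p was 0.186. Bach2, a repressor that favours memory over plasma cell fate, measured 36.5 to 42.5 FPKM and 30.9 and 32.8 FPKM and did not pass (-0.29, adjusted p = 0.0861), and Il9r did not pass either (1.16, adjusted p = 0.0544). Anxa2 (-1.04) and Lgals1 (-0.73) fell, and without Fraction 6 library 1 the call of Lgals1 was lost. The list mixes surface markers, transcription factors and cytoskeletal genes, and Vim (1.18) and Ahnak (1.35) belong to the latter.

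Markers of naive and marginal zone B cells rose in part, and Cd55, Fcer2a and Cr2 among them are also on the memory list. Of 11 tested, 6 rose and 1 fell (median 0.65). The fall, in 2010001M09Rik, was lost without either Fraction 6 library, without LZ library 3 or under quantile normalization. Their summed level was 709 to 762 FPKM in LZ and 944 and 988 FPKM in Fraction 6. Most of that rise was Fcer2a, at 344 to 357 FPKM in LZ and 536 and 570 FPKM in Fraction 6. Dtx1 measured 42.1 to 55.7 FPKM in LZ and 46.6 FPKM in each Fraction 6 library. S1pr3 measured 27.3 to 33.4 FPKM in LZ and 34.5 and 36.1 FPKM in Fraction 6. Notch2, the receptor that directs marginal zone B cells, measured 8.43, 8.45 and 7.15 FPKM against 39.4 and 43.8 FPKM. Cd1d1 rose (0.296 to 0.743 FPKM in LZ, 3.33 and 3.25 FPKM in Fraction 6), and Fcrl5 likewise (0.219 to 1.06 FPKM in LZ, 8.65 and 9.38 FPKM in Fraction 6). Fcer2a (CD23) rose by 0.65, whereas the complement receptor Cr2 did not pass (-0.07). Both gates were sorted as NP-binding and IgG1-positive, and the part of such cells in these results was not tested.

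Quiescence genes rose in large part. Of 29 tested, 23 rose and 1 fell (median 0.69). After Klf2, the next in size was Klf3, a related repressor, at 1.63, 1.6 and 1.45 FPKM in LZ and 13.4 and 16.2 FPKM in Fraction 6. Pik3ip1, an inhibitor of PI3 kinase, measured 0.511 to 1.44 FPKM against 7.93 and 8.63 FPKM (log2 change 2.34 ± 0.17 SE, adjusted p = 1.9e-07). Both were low in LZ and moderately expressed in Fraction 6. Foxp1 rose by 1.69, Sesn1, an inhibitor of mTORC1, by 1.51, Tsc22d3 (Gilz) by 1.49, Txnip by 1.40, Foxo3 by 1.22 and the antiproliferative gene Btg2 by 1.04. Foxo1, in contrast to Foxo3, measured 31.2 to 32 FPKM in LZ and 32.9 and 29.9 FPKM in Fraction 6, with overlapping groups (-0.01, adjusted p = 0.979). Tsc1 (0.08) and Tsc2 (-0.04), which encode the brake on mTORC1, did not pass.

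DNA replication and mitosis genes all fell. Every one of 41 replication genes and 47 mitosis genes tested was lower in Fraction 6, with median log2 changes of -1.87 and -2.26. All 47 mitosis calls, and 40 of the 41 replication calls, were kept with any 1 library left out, the exception being Gins4. Mki67, the proliferation antigen, measured 96.7, 120 and 104 FPKM in LZ and 16.5 and 18.7 FPKM in Fraction 6, 6.08-fold lower (log2 change -2.54 ± 0.20 SE, adjusted p = 3.48e-07). Pcna, the sliding clamp of replication, measured 409, 388 and 376 FPKM against 77.8 and 79.9 FPKM. Mcm2 and Mcm7 of the replicative helicase fell by 2.12 and 2.36, the DNA ligase Lig1 by 2.84 and the checkpoint adaptor Clspn by 2.78. Among mitosis genes the change ranged from -0.77 in Smc4 to -3.02 in Birc5, the survivin subunit of the chromosomal passenger complex, whose partners Incenp and Aurkb fell by 2.18 and 2.04. The summed level of the mitosis list was 1697 to 1931 FPKM in LZ, 339 and 386 FPKM in Fraction 6 and 190 to 267 FPKM in Fraction 7.

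Promoters of some of these genes are shown because the members moved together and many of their start regions share short letter patterns. Sequences are from RefSeq (GRCm38.p6), written along the gene's strand, and all printed bases lie before the transcription start. A pair of patterns known from mitotic promoters were searched on both strands in the 300 bases from 250 before to 50 after each start: CCAAT, the letters of the NF-Y box, and TTTGAA or TTCGAA, letters of the cell cycle genes homology region (CHR) bound by the MuvB complex. The searches were independent, so matches may overlap. In the mitosis genes below, capitals mark both patterns in either orientation. Genes were taken in order of adjusted p, passing over members that lacked either pattern in the stretch to be printed. Those shown were thus selected for having the letters.
Ncapd2: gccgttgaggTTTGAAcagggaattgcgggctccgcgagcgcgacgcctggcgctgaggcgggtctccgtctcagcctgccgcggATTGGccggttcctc
Cenpm: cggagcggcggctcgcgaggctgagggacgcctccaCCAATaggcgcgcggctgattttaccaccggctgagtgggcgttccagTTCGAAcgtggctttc
Ube2c: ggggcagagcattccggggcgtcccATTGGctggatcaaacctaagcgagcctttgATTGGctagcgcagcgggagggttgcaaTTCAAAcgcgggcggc
Bub1b: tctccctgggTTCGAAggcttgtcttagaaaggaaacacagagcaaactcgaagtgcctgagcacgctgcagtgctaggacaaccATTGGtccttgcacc
The parts shown are chr6:125191620-125191719 (minus strand) for Ncapd2, a condensin subunit, chr15:82244404-82244503 (minus) for Cenpm, a kinetochore protein, chr2:164769816-164769915 (plus) for Ube2c, the ubiquitin carrier of the anaphase-promoting complex, and chr2:118598013-118598112 (plus) for Bub1b, a spindle checkpoint kinase. These genes fell by 2.12, 2.49, 2.58 and 2.52 on the log2 scale. Of the 47 mitosis genes 39 had a promoter in the table; CHR letters were in 32 of them (82.1%), against 14.2% of 7910 tested genes with a promoter and 19.4% of all 27025 promoters. CCAAT was in 29 (74.4%), against 40.3% and 37.9%, and both were in 27 (69.2%), against 6.3% and 7.7%.

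A part of the replication genes carried another pattern. The letters searched on both strands were those of E2F sites, TTTGGCGC, TTTCCCGC, TTTCGCGC and TTTGGCGG, and capitals mark them here in either orientation. The genes shown were again selected for having the letters.
Clspn: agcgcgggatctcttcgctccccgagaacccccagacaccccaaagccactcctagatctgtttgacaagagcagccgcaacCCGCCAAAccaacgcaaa
Mcm7: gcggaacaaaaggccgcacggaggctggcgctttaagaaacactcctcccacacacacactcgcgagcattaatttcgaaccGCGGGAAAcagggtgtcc
Cdc6: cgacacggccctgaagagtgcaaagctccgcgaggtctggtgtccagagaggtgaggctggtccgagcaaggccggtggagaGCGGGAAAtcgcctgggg
Mcm5: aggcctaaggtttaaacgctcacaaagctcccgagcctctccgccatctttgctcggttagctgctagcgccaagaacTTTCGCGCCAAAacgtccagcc
They lie at chr4:126556777-126556876 (plus), chr5:138172031-138172130 (minus), chr11:98907931-98908030 (plus) and chr8:75109278-75109377 (plus), and in Mcm5 the capitals hold 2 overlapping matches. E2F letters were in 16 of 33 replication genes with a promoter (48.5%), 5 of 39 mitosis genes (12.8%) and 2 of 23 nucleotide synthesis genes (8.7%). They were in 4.82% of tested genes and 2.42% of all promoters. CCAAT with CHR letters was in 6 of the 33 (18.2%). The letters CACCC, bound by Kruppel-like factors, were in 18 of 27 quiescence gene promoters (66.7%), close to the 62% of tested genes and 56.7% of all promoters. A match is a description of the letters and no measurement of binding.

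Genes around entry into the cell cycle did not move as a block. Of 21 G1 cyclins, kinases and inhibitors tested, 14 fell and 5 rose (median -0.99), with 3 rises in place of 5 when Fraction 6 library 2 was left out. Ccnd3, the D-type cyclin of germinal centre cells, measured 181, 160 and 163 FPKM in LZ and 62.2 and 60 FPKM in Fraction 6, while Ccnd2 measured 10.4, 8.53 and 8.98 FPKM and 16.7 and 15.4 FPKM. These 2 cyclins thus moved in opposite directions, by -1.44 and 0.73 on the log2 scale. The repressors E2f7 and E2f8 fell by 2.18 and 2.84, and the activator E2f1 by 1.71. Among inhibitors, Cdkn1b (p27) rose (8.11 to 10.1 FPKM in LZ, 26.8 and 32.8 FPKM in Fraction 6, 1.64 ± 0.15 SE, adjusted p = 8.82e-07), Cdkn2c (p18) fell by 1.49 and Cdkn1a (p21) did not pass (-0.18). Myc, which drives growth of selected light zone cells, measured 40, 31.6 and 34.2 FPKM in LZ and 23.2 and 25.5 FPKM in Fraction 6 (-0.51 ± 0.13 SE, adjusted p = 0.00659), with an adjusted p of 0.0659 without Fraction 6 library 1. Of the 10 Myc network genes tested 4 rose and 3 fell (median 0.09), with 2 and 1 without that library and with 2 rises without Fraction 6 library 2 or LZ library 3. Mxd3 and Mxd4, both antagonists of Myc, moved in opposite directions (-2.16 and 0.70).

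Growth and biosynthesis genes were lower for the most part. Of 25 nucleotide synthesis genes 22 fell (median -1.14), of 33 ribosome biogenesis genes 30 (-0.67), of 31 mTORC1-associated genes 25 (-1.01) and of 24 sterol synthesis genes 22 (-1.07). Rises were found in the mTORC1 list alone among these 4, where they numbered 2. Under quantile normalization the medians of these lists were -0.87, -0.47, -0.86 and -0.95 in the same order. With Fraction 3 (Bcl6-YFP-high, CD69-low light zone cells) as the reference they were -0.97, -0.39, -0.71 and -1.18. In these 2 settings 25 and 20 ribosome biogenesis genes fell. Rrm2 and Rrm1, the subunits of ribonucleotide reductase, fell by 3.24 and 2.43, and Dut by 2.25. Rrm2 measured 116, 120 and 117 FPKM in LZ and 10.6 and 12.5 FPKM in Fraction 6, 10.2-fold lower. Ncl, the nucleolar protein nucleolin, measured 123, 127 and 114 FPKM against 59.3 and 66.4 FPKM, and the snoRNP genes Gar1 and Nop58 fell by 1.40 and 1.34. Of the 30 falls in ribosome biogenesis, 20 were kept with any 1 library left out. In the mTORC1 list, the largest falls were those of the one-carbon enzyme gene Mthfd2 (-1.81), the branched-chain aminotransferase gene Bcat1 (-1.63), Psat1 (-1.62) of serine synthesis and the asparagine synthetase gene Asns (-1.59). The amino acid carrier Slc7a5 measured 35, 27.2 and 24.4 FPKM against 10.8 and 10.6 FPKM, while its partner chain Slc3a2 did not pass (-0.15). Ddit4 (Redd1) and Sesn2, both inhibitors of mTORC1 that the list includes, were the members that rose (0.99 and 0.62, the latter not in every fit with a library left out).

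In sterol synthesis, enzymes and a regulator fell together. Idi1, an isomerase of the mevalonate pathway, measured 40, 49.6 and 43.7 FPKM in LZ and 7.85 and 7.67 FPKM in Fraction 6 (log2 change -2.37 ± 0.16 SE, adjusted p = 9.69e-08). Sqle, squalene epoxidase, measured 28.3, 29.9 and 29.1 FPKM against 6.33 and 5.87 FPKM. Insig1, which retains the SREBP complex, fell by 1.78 on the log2 scale, and Cyp51, a sterol demethylase, by 1.83. The cholesterol export genes Abcg1 and Abca1 went the opposite way. They belong to a list of sphingolipid and lipid export that also holds sphingosine 1-phosphate receptors. Of its 14 genes tested, 8 rose and S1pr2 fell (median 0.83). Abcg1 measured 1.73, 3.3 and 1.48 FPKM against 15.9 and 13.6 FPKM, Abca1 rose by 1.43, and Mylip (Idol), a ubiquitin ligase, measured 21, 13.9 and 18.9 FPKM in LZ and 57.7 and 46.4 FPKM in Fraction 6. Apoe measured 315, 242 and 341 FPKM against 584 and 599 FPKM. Spns2, a sphingosine 1-phosphate exporter, and the receptor S1pr4 rose by 1.35 and 2.02.

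Genes of energy metabolism and protein turnover were also lower for the most part. Of 57 oxidative phosphorylation genes, 54 fell and 0 rose (median -0.68), with 40 falls, 2 rises and a median of -0.41 under quantile normalization. Atp5b measured 472, 452 and 424 FPKM in LZ and 212 and 215 FPKM in Fraction 6. All 31 proteasome genes fell, by 0.41 to 1.14 (median -0.86, and -0.57 under quantile normalization). Glycolysis was mixed, with 10 falls and 3 rises among 21 genes (median -0.53): Gapdh measured 950, 855 and 824 FPKM against 387 and 391 FPKM, and Tpi1 fell by 1.63, whereas the glucose carrier Slc2a3 rose by 0.89 and Slc2a1 by 0.40. The rise of Slc2a1 was lost in at least 1 fit with a library left out, and Hk1 (0.17), Hk2 (-0.29) and Pdk1 (0.15) did not pass.

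**Figure D4:**
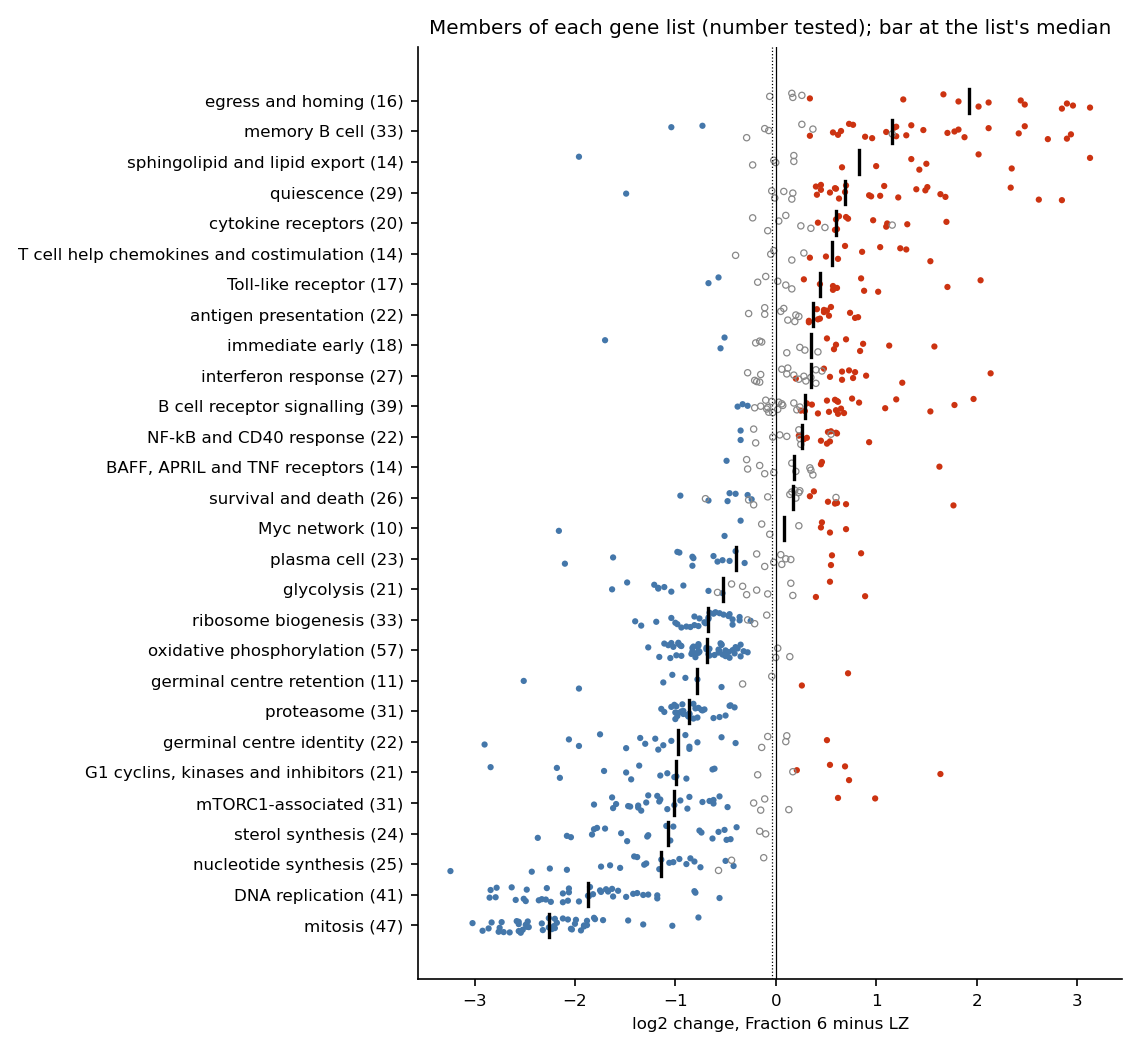
Log2 change, Fraction 6 minus LZ, of each tested member of 28 gene lists, ordered by the list's median (black bar), with the number tested in parentheses. Filled red and blue points passed the threshold upwards and downwards, open points did not, and the dotted line is the median of all genes (-0.04). The medians run from -2.26 in mitosis to 1.92 in egress and homing.

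Receptors for antigen and for innate and cytokine signals were on the whole somewhat higher. Of 39 genes of B cell receptor signalling, 21 rose and 3 fell (median 0.29), with 30 and 0 and a median of 0.53 under quantile normalization. Blk, a Src family kinase, measured 93.9, 89.3 and 92.3 FPKM in LZ and 191 and 203 FPKM in Fraction 6 (log2 change 1.09 ± 0.07 SE, adjusted p = 9.23e-08). The inhibitory receptors Cd72 and Lilrb3 (Pirb) rose by 1.54 and 1.97, and Syk by 0.60. Btk (0.21), Blnk (0.02) and Plcg2 (-0.09) did not pass. Of 17 genes of the Toll-like receptor list 10 rose and 2 fell (median 0.44), led by Irak3, an inhibitor of the pathway, at 0.829 to 1.24 FPKM and 7.86 and 7.2 FPKM. The falls numbered 1 without Fraction 6 library 1 or without LZ library 2. Tlr7, the sensor of single-stranded RNA, measured 1.4, 0.917 and 0.51 FPKM against 5.12 and 5.38 FPKM, and Tlr9 rose by 0.57. The adaptor Myd88 did not pass (-0.18).

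Of 20 cytokine receptor genes 12 rose and 0 fell (median 0.60), among them Il27ra (1.70), both interleukin 10 receptor chains (Il10ra 1.31, Il10rb 1.11), Il6ra (1.10) and Il4ra (0.59). Il21r, the receptor for the main cytokine of follicular helper cells, measured 117, 122 and 111 FPKM in LZ and 117 and 104 FPKM in Fraction 6, with overlapping groups (-0.08, adjusted p = 0.48). In antigen presentation 13 of 22 rose and 0 fell (median 0.37): H2-Ob and H2-Oa, which restrain peptide loading by H2-DM, rose by 0.82 and 0.79, and the class II activator Ciita by 0.53. Of 27 interferon response genes 11 rose and 0 fell (median 0.35), but 4 rose and 1 fell without Fraction 6 library 1 (median 0.15), and without Fraction 6 library 2 the median was 0.56. Ddx58 (Rig-I), a sensor of viral RNA, stood apart in that list at 1.63, 1.73 and 1.44 FPKM in LZ and 10.4 FPKM in each Fraction 6 library (2.14 ± 0.12 SE, adjusted p = 1.76e-08).

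Survival and death genes moved in both directions, with a share of falls near that over all genes. Of 26 tested, 8 rose (30.8%) and 7 fell (26.9%), against 18.9% and 28.5% over all genes. The median was 0.18, and 0.07 when Fraction 6 library 2 was left out. Under quantile normalization 12 rose, 4 fell and the median was 0.28. Bcl2 measured 2.24, 2.02 and 1.02 FPKM in LZ and 8.34 and 8.09 FPKM in Fraction 6 (log2 change 1.77 ± 0.23 SE, adjusted p = 2.81e-05), and Mcl1 measured 144 to 160 FPKM against 230 and 222 FPKM. Both antiapoptotic genes were higher in every Fraction 6 library. The pore-forming Bak1 and Bax fell by 0.67 and 0.48. Bcl2l1 (-0.22), which encodes Bcl-xL, did not pass. Bcl2l11 (Bim), a death activator, measured 6.81 to 7.88 FPKM and 9.68 and 9.46 FPKM (0.34, adjusted p = 0.0465), and without 1 library the adjusted p rose to between 0.0816 and 0.167 in 4 of the 5 fits. The list of BAFF, APRIL and TNF receptors also holds the ligand genes Ltb, Lta and Tnf. Of its 14 genes tested, 3 rose (21.4%) and 1 fell (7.14%), against 18.9% and 28.5% over all genes. The median was 0.18, and 0.10 without LZ library 2. The fall, in Lta (-0.49), was lost without Fraction 6 library 2, and there were 5 rises and 0 falls under quantile normalization. The BAFF receptor gene Tnfrsf13c measured 334, 315 and 349 FPKM in LZ and 298 and 318 FPKM in Fraction 6, with overlapping groups (-0.11, adjusted p = 0.373), and Tnfrsf13b (TACI) did not pass either (0.37, adjusted p = 0.0848). Tnfrsf18 (GITR) rose (1.04 to 2.19 FPKM in LZ, 7.56 and 6.48 FPKM in Fraction 6).

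Plasma cell genes were lower for the most part. Of 23 tested, 13 fell and 3 rose (median -0.40). The falls included chaperones and folding factors of the endoplasmic reticulum such as Sdf2l1 (-1.62), Manf (-0.98), Hspa5 (-0.83) and the disulfide isomerase family gene Pdia6 (-0.96), as well as Slamf7 (-0.58), a surface receptor. Pdia4, of the same family as Pdia6, rose (30.4 to 36.6 FPKM in LZ, 62 and 59.4 FPKM in Fraction 6). Prdm1, the factor that commits cells to the plasma cell fate, did not pass (-0.11). Xbp1 (-0.83) and Igj (-2.10), the J chain gene, fell in the fit with all libraries but not in every fit with a library left out.

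Against its neighbours, Fraction 6 differed from Fraction 5 in 1968 genes (17.5%), 797 higher and 1171 lower, and from Fraction 7 in 2393 genes (21.2%), 830 higher and 1563 lower in Fraction 7. The latter split was 1205 and 1470 under quantile normalization. Without Fraction 6 library 1 the counts against Fraction 5 were 490 higher and 662 lower and those for Fraction 7 were 475 and 1086, and without Fraction 6 library 2 they were 374 and 796, and 495 and 839. These comparisons share the Fraction 6 libraries with the one against LZ. List counts in them, here and below, are to be read against their own counts over all genes, not against the shares given for LZ. Growth genes had low values in Fraction 5 too, a difference from LZ that was not tested here: the median log2 level of the mTORC1 list was 4.79 to 5.17 in LZ, 3.99 to 4.05 in Fraction 5 and 4.15 and 4.19 in Fraction 6, and that of ribosome biogenesis was 4.90 to 5.19, 3.64 to 4.04 and 4.12 and 4.30. From Fraction 5 to Fraction 6, 11 of 33 ribosome biogenesis genes rose and 0 fell, against 797 and 1171 of 11266 over all genes. Mitosis and germinal centre identity behaved otherwise. The mitosis median was 4.97 to 5.16 in LZ, 4.48 to 4.88 in Fraction 5 and 2.71 and 2.95 in Fraction 6, and all 47 members were lower in Fraction 6 than in Fraction 5. For germinal centre identity the medians were 6.69 to 6.79, 6.92 to 6.93 and 6.00 and 5.74, with 3.87 to 4.11 in Fraction 7.

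**Figure D5:**
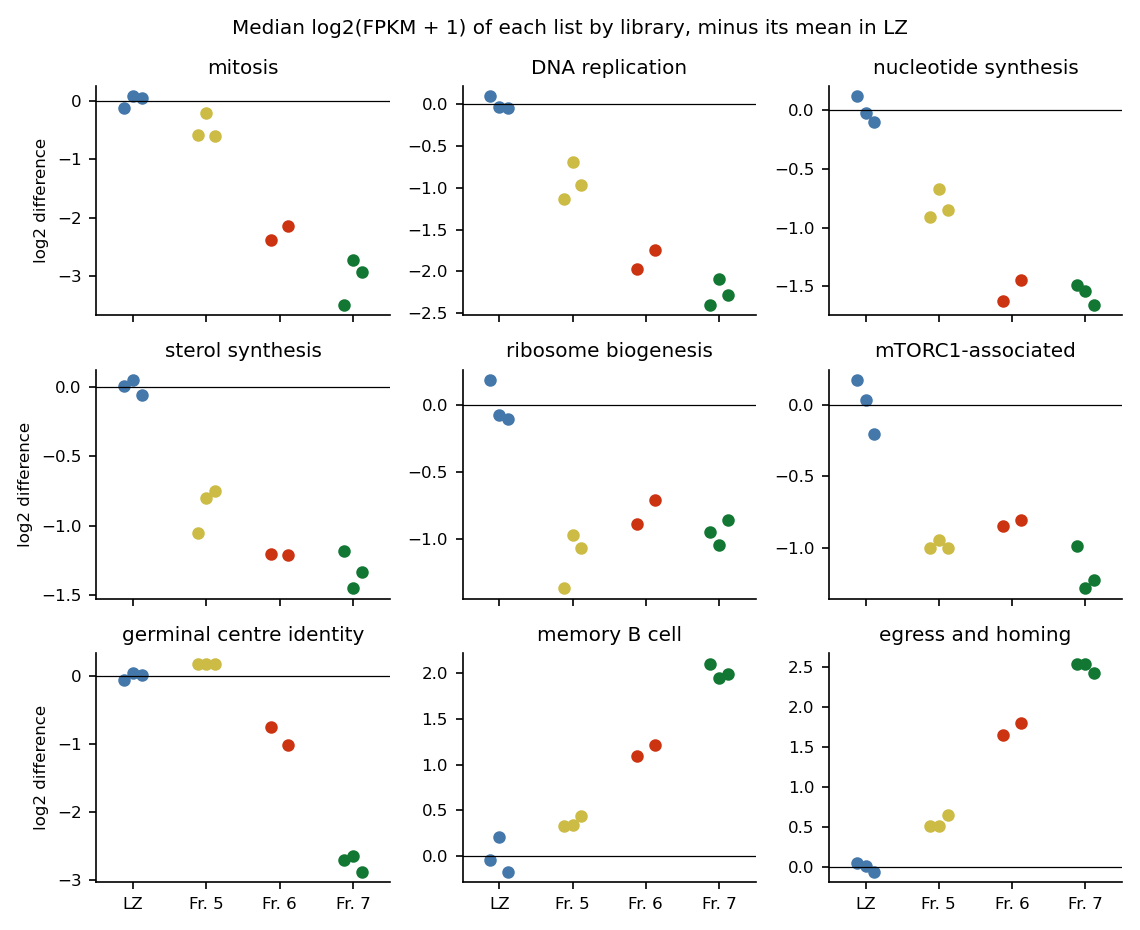
Median log2(FPKM + 1) of 9 gene lists in each library of LZ, Fraction 5, Fraction 6 and Fraction 7, minus the mean over the LZ libraries, which are the reference and lie around 0. Each point is 1 library. mTORC1 and ribosome biogenesis genes are low in Fractions 5, 6 and 7 alike, mitosis genes drop mainly between Fractions 5 and 6, and egress and memory genes climb in each gate.

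Of the 16 egress and homing genes tested, 8 were higher and 2 lower in Fraction 7 than in Fraction 6, and 13 were higher and 1 lower in Fraction 6 than in Fraction 5. S1pr1 had means of 3.36 FPKM in LZ, 4.17 in Fraction 5, 37.3 in Fraction 6 and 105 in Fraction 7, with adjusted p = 4.44e-07 against Fraction 5 and 0.000112 against Fraction 7. Klf2 had means of 23.4, 35.3, 174 and 236 FPKM, and the last step did not pass (adjusted p = 0.126). Ccr7 was at 0.483, 1.17, 7.24 and 42.2 FPKM, higher in Fraction 7 than in Fraction 6 (adjusted p = 1.04e-05). Of these 3 genes, Klf2 was the one whose last step did not pass. S1pr2 was at 140, 152, 35.2 and 4.27 FPKM, so Fraction 6 lay between Fractions 5 and 7 and differed from each (adjusted p = 5.78e-08 and 1.55e-09). Gapdh fell from a mean of 566 FPKM in Fraction 5 to 389 FPKM in Fraction 6 (adjusted p = 0.000134). Sqle, with 29.1 FPKM in LZ and 9.9 in Fraction 5, was at 6.1 in Fraction 6 and 5.94 in Fraction 7, where the last step did not pass (adjusted p = 0.871).

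A few rows need their values read with care. FPKM of very short transcripts rest on few fragments, and 4 small RNA rows were among the largest rises. Snord91a, Mir20a and Mir1186 were listed at 0 in all LZ libraries, and Mir1940 at 0, 5.38e-07 and 0 FPKM. In Fraction 6 they were listed at 450 and 219, 20.4 and 38, 12.6 and 13.5, and 41.9 and 41.7 FPKM in that order. Snora70 was among the falls, at 114, 163 and 68 FPKM in LZ and 0 and 28.3 FPKM in Fraction 6. No fold is given for these rows. Of 177 microRNA and snoRNA rows tested, 7 passed the threshold, 4 upwards and 3 downwards.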

How the data were processed

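RNA was isolated with TRIzol and made into libraries with a NEBNext Ultra RNA kit for Illumina HiSeq sequencing, per the labels' protocols and design text. Strand use is not given in the sources used here, so reads of overlapping antisense genes may not be separated. Per the submitters' processing notes, the tools were TopHat2 2.0.8 and Cufflinks 2.1.1 and the build mm9. The authors deposited FPKM for 23234 genes with a name in 16 libraries, and 1 row without a name was left out. FPKM are not counts, so count tools were not used and the number of reads is unknown.

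The 11266 genes reaching 1 FPKM in 2 or more libraries were set to log2(FPKM + 1), and a log2 change is on that scale, which understates changes of low genes. limma 3.58.1 in R 4.3.3 fitted means of the 6 gates to the 16 libraries and let the variance follow the level. Adjustment was by Benjamini-Hochberg for each comparison, with a threshold of 0.05. In simulated data of the same size, with 200 genes changed by 1 on the log2 scale, it recovered 97% for Fraction 6 against LZ. The changed genes were drawn from the better expressed ones, the noise was independent and normal, and all other genes were left unchanged. The 97% therefore does not describe genes of low level or the share recovered in the real data. A ± value after a log2 change is the standard error. Figures used Python 3.11.15 and matplotlib 3.10.9.

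Genes named were the 15 largest rises and 15 largest falls that passed, had a group mean of 5 FPKM or more, no overlap and a call kept with each library left out, gate genes aside. To these come a fixed panel, up to 6 members per list by smallest adjusted p, up to 2 markers per other cell type and the gate genes. Other list members were named after their values were seen. Members and lists were chosen with earlier results of these data known, so a list's count is a description. Some genes are in more than 1 list. Symbols were matched to older names where needed (Gcsam as Gcet2, Nuggc as Gm600, Ackr4 as Ccrl1, Pirb as Lilrb3, Mzb1 as 2010001M09Rik). Promoters come from RefSeq, whose build differs from mm9, so expression values carry no coordinates. In egress and homing 9 of 16 members had a promoter. The letters CACCC were in 5 of these 9 (55.6%), against 62% of tested genes and 56.7% of all promoters. With so few promoters this share is a description only. Alternatives were 2 other scalings, a pseudocount of 0.1, other filters, the compared groups alone, a block for the replicate number, weights per library, leaving out each library, and Fraction 3 (n = 3, Bcl6-YFP-high, CD69-low light zone cells) in place of LZ. Some genes are not reported here.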

Additional observations from a re-analysis of the deposited data

How the results depend on the processing

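Depth is unknown, the Fraction 6 group rests on 2 libraries, and a fit without 1 of them assumes that the lone library varies like the other groups. For Fraction 6 against LZ, the counts stayed within 1.5 times the reported ones under all 9 other settings and with each library left out, which gave 1468 to 1931 genes higher and 2394 to 3031 lower. For Fraction 6 against Fraction 5 the latter gave 374 to 707 higher and 662 to 1161 lower: 490 and 662 without Fraction 6 library 1, and 374 and 796 without Fraction 6 library 2. For Fraction 7 against Fraction 6 it gave 475 to 723 higher and 839 to 1776 lower: 475 and 1086 without Fraction 6 library 1, and 495 and 839 without Fraction 6 library 2. The 2 groups of that comparison fitted alone gave 495 higher and 753 lower, with fewer libraries behind the variance. The cause of these shifts beyond the smaller number of libraries was not tested. With Fraction 3 as the reference in place of LZ, the log2 change of Myc was 0.00 (adjusted p = 0.992) and that of Batf was 0.54 (adjusted p = 0.00489), both lower in Fraction 6 when set against LZ. Of 3152 recomputed values for 226 named genes, 3064 kept their call or their lack of one, 61 lost the call and 25 gained one. The other 2, those of Myc and Batf, changed sign. Changes of sign were not counted where neither fit passed the threshold. Of 476 recomputed list medians, 99 moved by more than the spread between libraries, 21 of them under quantile normalization, 17 with Fraction 3 as the reference, 10 without Fraction 6 library 1 and 9 without Fraction 6 library 2. Of 205 named genes with a call, 17 lost it with at least 1 library left out. Many genes were named for a small adjusted p, and the largest changes for a call kept with each library left out. The shares for named genes are thus set partly by that choice. Over all calls, 62% were kept with any 1 library left out. Deviations of same-numbered Fraction 6 and LZ libraries from their group means correlated at 0.008 and -0.052. With 2 Fraction 6 libraries these deviations mirror each other, so the values cannot decide whether replicate numbers pair the samples. The replicate block gave 2139 genes higher and 3278 lower for Fraction 6 against LZ.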
